A study of Mus musculus with 45 samples.

Results

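The matrix metalloproteinases (Mmp), the Adamts proteases and the Timp inhibitors were taken from the count table by gene symbol, as every symbol made of Mmp and a number with or without a closing a or b, of Adamts and a number, or of Timp and a number from 1 to 4. This rule used no measured value and gave 46 genes of 55367 gene symbols, 23 of them Mmp, 19 Adamts and 4 Timp genes. The series asked how the tissues that a breast cancer reaches, and an implanted scaffold that takes up circulating cells, differ between cancers of unequal metastatic ability. RNA from primary tumors, scaffolds, lungs and spleens was sequenced in 45 libraries of 3′ tags, 3 for each of 15 groups. All mice were female Balb/c mice, and all of them, controls included, carried porous polycaprolactone scaffolds under the skin. The scaffolds were placed at 7 to 8 weeks of age, 2 weeks before inoculation. Tumor-bearing mice received 2000000 cells of the 67NR, 4T07 or 4T1 line orthotopically, and the healthy controls received none and gave no primary tumor. Every tissue was taken at day 14. The 3 lines descend from 1 mammary tumor of a BALB/cfC3H mouse: 67NR cells form tumors without spreading, 4T07 cells reach distant organs and rarely grow there, and 4T1 cells form metastases. Each class of metastatic ability is represented by a single line, and a tumor library mixes RNA of the line with RNA of the host cells in the tumor.

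Mmp proteases are zinc enzymes, secreted or bound to the membrane as inactive precursors, that cut collagens, gelatin, elastin and other proteins of the extracellular matrix once their propeptide is removed. Adamts proteases are secreted relatives with thrombospondin repeats; some cut aggrecan and versican, some trim procollagens, and Adamts13 cuts von Willebrand factor. Timp proteins bind the active site of Mmp enzymes, and Timp3, which is held in the matrix, also inhibits several Adamts proteases. In tumors these genes are known from fibroblasts, macrophages and cancer cells, whereas Mmp8, Mmp9 and Mmp25 are stored in the granules of neutrophils.

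Values are CPM, that is, counts divided by the total count of their library and scaled to a total of 1000000, printed in the order of replicates 1 to 3. They were not divided by gene length, and levels were compared between samples and not between genes. The libraries held 3491888 to 8175380 counts with a median of 5149589. At these totals 3 counts, taken as the highest level that a count of 0 allows, were 0.367 to 0.859 CPM. A gene was called different between 2 groups at an adjusted p under 0.05 in tumors or under 0.1 elsewhere, together with a fold change over 2, by the quasi-likelihood test of edgeR, adjusted by the Benjamini-Hochberg method over all genes tested. The p-values measure the spread between these samples, since the labels do not say how replicates were prepared, and an exact test of 3 libraries against 3 cannot go below p = 0.1. Some libraries stood apart in lists of cell type markers. In 67NR tumors, replicate 2 had the highest sum of 9 neutrophil markers (range 23.4 to 377 CPM) and of 5 lung epithelium markers (54.8 to 382 CPM). In 4T07 lungs, the epithelium markers summed to 5693 to 14287 CPM, lowest in replicate 2, against 34911 to 37028 CPM in control lungs. In 4T07 spleens, the same markers summed to 39.8 to 85.2 CPM, against 3.92 to 11.6 CPM in control spleens. Skeletal muscle markers summed to 30.4 to 37.9 CPM in 4T07 spleens, against 7.84 to 11.7 CPM in control spleens. The lung epithelium sum also reached 419 CPM in a 67NR scaffold and 277 CPM in a control scaffold. In bulk tissue, fewer cells of a type and less RNA per cell cannot be told apart.

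No member was at 0 in all 45 libraries. Over 10 counts were reached by 39 members in the tumors, 40 in the scaffolds, 37 in the lungs and 38 in the spleens, 34 of them in all 4 tissues. Mmp7, Mmp24 and Mmp28 stayed at or below 10 counts in every tissue and were not tested within a tissue. The highest group mean fell in a scaffold group for 18 members, in a lung group for 12, in a tumor group for 10 and in a spleen group for 6. The 46 genes together summed to 6074 ± 1042 CPM (SD, n = 3) in control scaffolds, 1499 ± 142 CPM in control lungs and 659 ± 78.3 CPM in control spleens. They summed to 2004 ± 287 CPM in 67NR tumors, 3003 ± 442 CPM in 4T07 tumors and 2919.6 ± 173 CPM in 4T1 tumors. Within the tissues, 36 members were called in at least 1 comparison. The other 10 were Adamts18, Adamts19, Adamts20, Mmp15, Mmp1b, Mmp21 and Timp2, which were tested but never called, and the 3 untested genes.

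**Figure D1:**
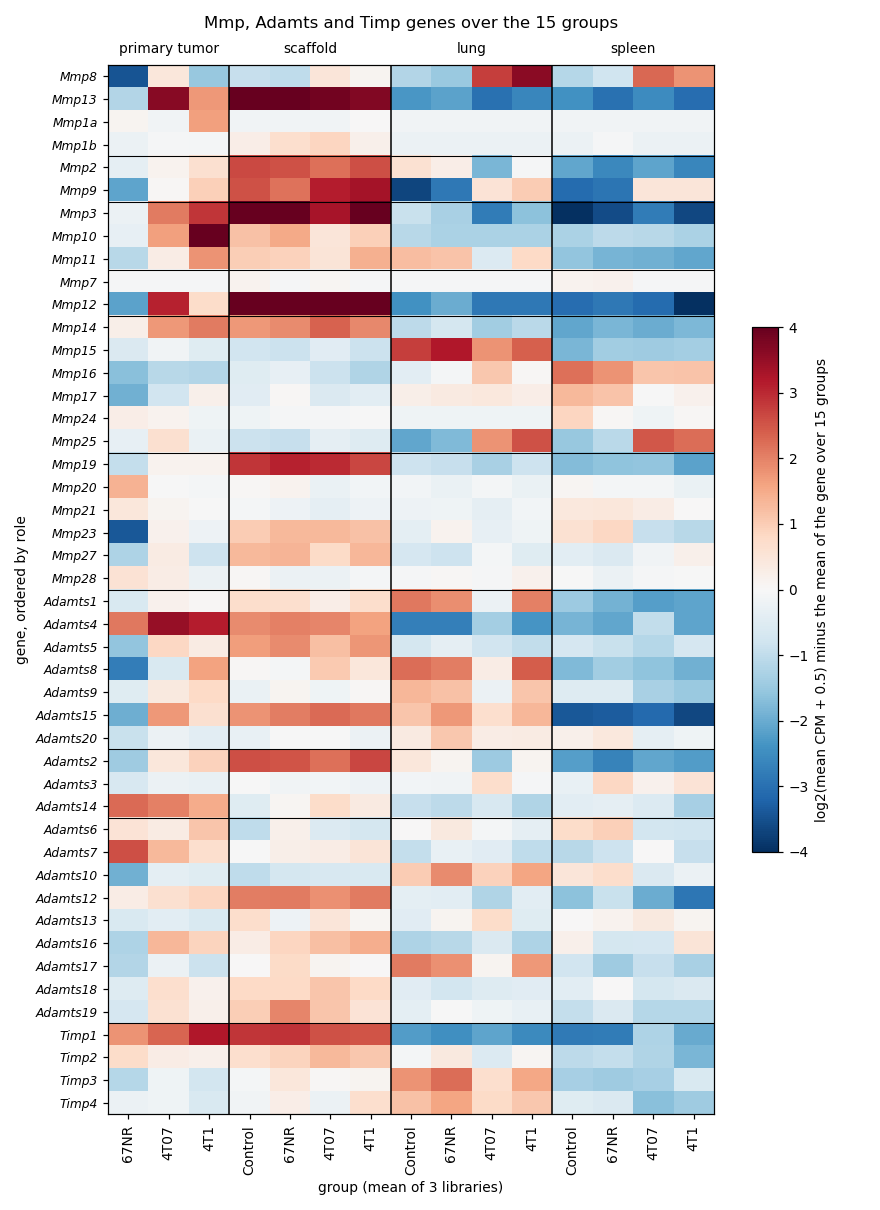
Heat map of the 46 genes (vertical, ordered by role) over the 15 groups (horizontal). Color is log2(mean CPM + 0.5) minus the gene's mean of that quantity over the 15 groups, with colors ending at 4 in both directions. Scaffold groups hold the highest mean of 18 genes.

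The table of genes from RefSeq has 10 adjacent protein-coding genes on GRCm38.p6 that are all members, which lie on chromosome 9 in the order Mmp13, Mmp12, Mmp1b, Mmp3, Mmp1a, Mmp10, Mmp8, Mmp27, Mmp20 and Mmp7. Promoter windows of 300 bases, 250 before and 50 after the start of the gene, were matched for 32 of the 46 members, and all 10 genes of this cluster were among them. The windows were searched on both strands for TGAGTCA, whose reverse complement is TGACTCA and which is the usual binding sequence of the AP-1 transcription factors. It was found in 7 members, all in the cluster, and in 0 of the 22 other members with a window, against 5.95% of the 27025 symbols with a window (5.2% of 32851 windows). The 7 were Mmp13, Mmp12, Mmp1b, Mmp3, Mmp1a, Mmp10 and Mmp7. Within the tissues, Mmp1b was never called and Mmp7 was not tested. Mmp8, Mmp27 and Mmp20 of the cluster lacked the heptamer and were called between tumors. The 4 cluster genes with the sequences below were among those that differed between tumors or between tissues. Each shows the 100 bases before the start, on the plus strand, with the heptamer in capitals. The stretches are chr9:7272414-7272513 for Mmp13, chr9:7347274-7347373 for Mmp12, chr9:7445722-7445821 for Mmp3 and chr9:7502242-7502341 for Mmp10. The first base of the heptamer lay 35, 44, 46 and 63 bases before the start, respectively. The match is of letters and no binding was measured here.
Mmp13: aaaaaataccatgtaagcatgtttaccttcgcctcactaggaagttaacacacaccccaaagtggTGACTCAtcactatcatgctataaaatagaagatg
Mmp12: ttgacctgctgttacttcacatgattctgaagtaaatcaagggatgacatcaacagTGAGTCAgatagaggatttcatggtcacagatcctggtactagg
Mmp3: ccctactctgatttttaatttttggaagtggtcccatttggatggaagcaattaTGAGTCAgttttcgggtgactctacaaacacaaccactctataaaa
Mmp10: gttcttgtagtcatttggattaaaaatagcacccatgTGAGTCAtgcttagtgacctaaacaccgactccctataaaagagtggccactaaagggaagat

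Scaffolds of healthy mice differed from lungs and spleens of the same groups of mice in most members. Against control lungs, 30 of 39 tested members were called, 21 higher and 9 lower in scaffolds, where 32.6% of all genes tested were called (14.7% higher, 17.9% lower). Their median log2 fold change was 1.67 (1.65 with genes at 0 in 1 tissue set to their bound), against 0.00 over all genes. Against control spleens, 29 of 39 were called, 25 higher and 4 lower (34.5% of all genes, 16.9% higher and 17.5% lower), with a median of 2.08 (2.04 with bounds) against -0.06. Lungs and spleens, compared with each other, gave 19 called members, 14 higher and 5 lower in lungs (39.9% of all genes, 20.2% higher and 19.7% lower). The scaffold is shared by the first 2 of these comparisons. The libraries of the compared tissues did not overlap for 33 of 39 members between scaffold and lung (55.1% of all genes tested), 29 between scaffold and spleen (51.6%) and 26 between lung and spleen (57.3%). Members of the chromosome 9 cluster were among the most unequal genes.

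Mmp12, the macrophage elastase, had 1428, 1834 and 2171 CPM in control scaffolds, 13.2, 8.11 and 6.31 CPM in control lungs and 10.3, 4.15 and 3.02 CPM in control spleens. Every scaffold was above every lung and spleen, and the difference from lungs was the largest of the 39 tested members (log2 fold change 7.82, standard error 0.41, adjusted p = 1.04e-09). Mmp13, a collagenase known from bone and healing tissue, had 248, 265 and 228 CPM in scaffolds, 1.92, 1.80 and 0.809 CPM in lungs and 2.14, 0.461 and 1.51 CPM in spleens. It too was separated without overlap (log2 fold change 7.56, standard error 0.30, adjusted p = 9.72e-11 against lungs). Mmp3, the stromelysin that can also activate other Mmp precursors, had 392, 591 and 505 CPM in scaffolds, 13.8, 13.9 and 10.5 CPM in lungs and 2.52, 0.461 and 0.216 CPM in spleens, the lungs lying between the other tissues. Its difference was 5.49 from lungs and 8.92 from spleens on the log2 scale (0.31 and 0.41 standard error). Mmp10, a second stromelysin, had 2.52, 2.85 and 1.26 CPM in scaffolds and 0 counts in every control spleen, so that scaffolds were at least 3.45-fold higher. Mmp9, the gelatinase of neutrophils and osteoclasts, had 304, 628 and 748 CPM in scaffolds, lowest in replicate 1, and 6.28, 8.66 and 6.15 CPM in lungs. The scaffolds were all higher (log2 fold change 6.51, standard error 0.31, adjusted p = 4.89e-10).

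Some members were lower in scaffolds. Mmp15, a membrane-bound protease, had 2.10, 3.17 and 4.25 CPM in control scaffolds and 42.0, 44.5 and 40.0 CPM in control lungs, without overlap (log2 fold change -3.49, standard error 0.27, adjusted p = 6.30e-08). Adamts8, an aggrecan-cutting protease, had 8.60, 7.44 and 16.4 CPM in scaffolds and 48.1, 54.5 and 48.9 CPM in lungs. All lungs were higher (log2 fold change -2.01, standard error 0.25, adjusted p = 8.36e-06). Adamts17 (-2.07), Adamts10 (-1.87) and Timp3 (-1.70), given as log2 fold changes, were called lower against lungs as well. Against spleens the lower members were Mmp16 (-2.82), Adamts6 (-1.89), Mmp17 (-1.77) and Adamts10 (-1.37). Markers of several cell types differed as well. The 7 fibroblast markers summed to 8545 to 12202 CPM in control scaffolds, 1218 to 1422 CPM in control lungs and 491 to 521 CPM in control spleens, with 6 of 7 called higher against lungs and 7 of 7 against spleens. The sum of 7 markers of multinucleated giant cells and osteoclasts was 5179.6 to 5742 CPM in control scaffolds, 74.1 to 133 CPM in control lungs and 114 to 127 CPM in control spleens, with 6 of 7 called higher against lungs and 7 of 7 against spleens; Oscar was at 0 in the lungs, and Oscar and Calcr in the spleens. The 8 macrophage markers summed to 3229 to 3437 CPM in scaffolds, 454 to 478 CPM in lungs and 1679 to 2268 CPM in spleens, with 7 of 8 called higher against lungs and 2 of 8 against spleens. Fat cell markers were called higher in scaffolds in 3 of 4 against lungs and 4 of 4 against spleens, and skeletal muscle markers in 4 of 4 against each. Beside the members that were lower, 5 of 5 endothelial and 5 of 5 lung epithelium markers were called lower than in lungs, and 4 of 4 markers of B cells and spleen lower than in spleens (2 of 4 against lungs). Neutrophil markers were called higher in 4 and lower in 1 of 9 against lungs, and higher in 1 and lower in 5 against spleens. Epithelial markers were higher in 2 and lower in 4 of 6 against lungs and higher in 4 of 6 against spleens. Endothelial markers were higher in 2 and lower in 1 of 5, and lung epithelium markers higher in 4 of 5, against spleens. Erythroid markers were higher in 1 and lower in 2 of 4 against lungs, and lower in 4 of 4 against spleens. Their part in the members' differences was not tested.

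In the primary tumors, most of the called members were higher in 4T07 and in 4T1 than in 67NR. Against 67NR tumors, 19 of 39 tested members were called in 4T07 tumors, 17 higher and 2 lower, where 28.9% of all genes were called (17.1% higher, 11.8% lower). In 4T1 tumors 22 were called, 19 higher and 3 lower (20.7% of all genes, 11.6% higher, 9.07% lower). The median log2 fold change of the 39 was 1.26 in 4T07 (1.26 with genes at 0 set to their bound) against 0.16 over all genes, and 1.22 in 4T1 (1.20 with bounds) against 0.09. Both comparisons share the 67NR tumors. Between 4T1 and 4T07 tumors, 8 members were called, 4 in each direction (8.61% of all genes, 3.82% higher and 4.79% lower in 4T1). The libraries did not overlap for 26 of the 39 members between 4T07 and 67NR (51.3% of all genes tested), 27 between 4T1 and 67NR (46.7%) and 20 between 4T1 and 4T07 (35.9%). The cluster on chromosome 9 had 8 tested genes, of which 6 were higher and 1 lower in 4T07, and 5 higher and 1 lower in 4T1, than in 67NR. Without replicate 2 of 67NR, the library that stood apart in its markers, 18 members were called in 4T07 and 20 in 4T1, where Mmp8 was then called as well.

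**Figure D2:**
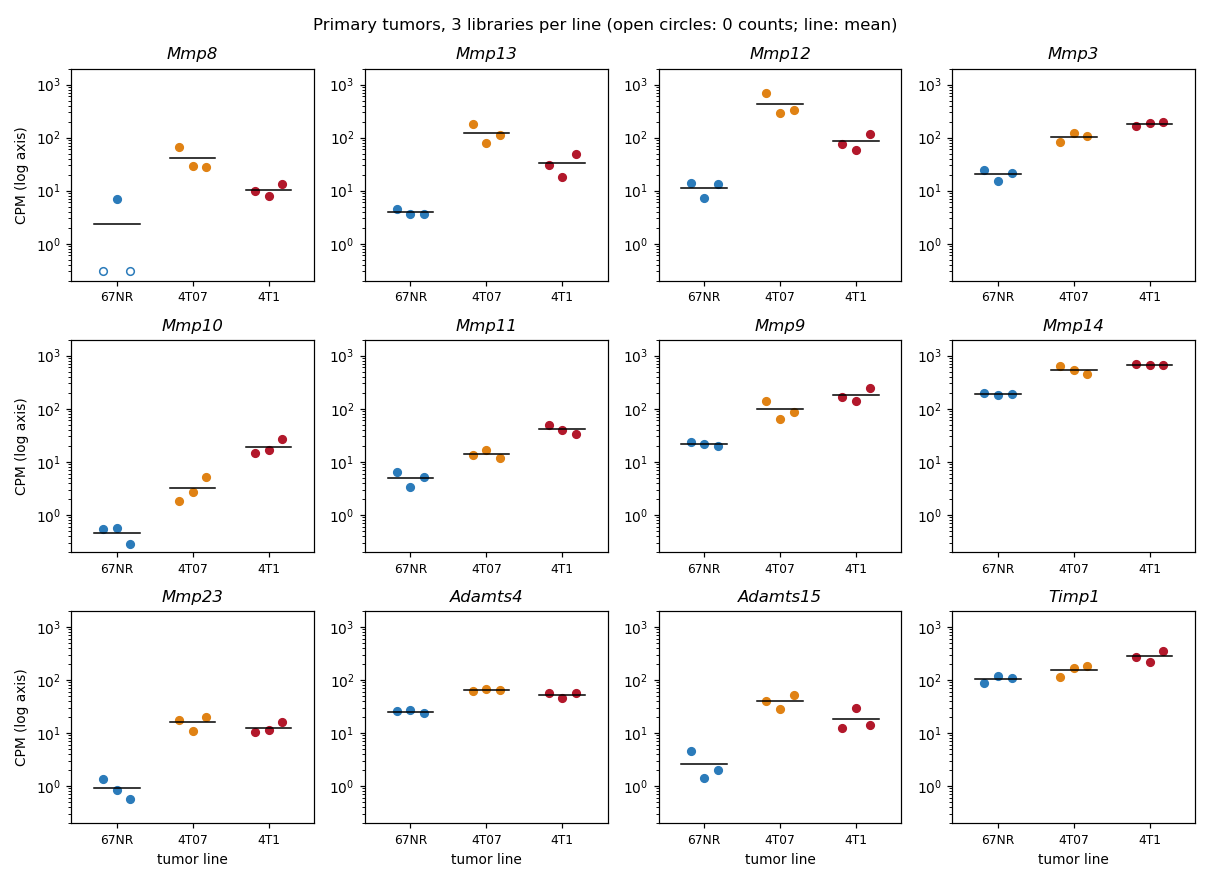
Level of 12 members in every primary tumor library (CPM on a log axis, open circles for 0 counts, lines for group means) in 67NR, 4T07 and 4T1 tumors, 3 libraries each. Mmp12 and Mmp13 are highest in 4T07, and Mmp10 and Mmp11 are highest in 4T1.

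Among the collagenases, Mmp13 had 4.57, 3.64 and 3.67 CPM in 67NR tumors, 179, 79.1 and 112 CPM in 4T07 tumors and 30.4, 17.8 and 49.4 CPM in 4T1 tumors. The 3 groups did not overlap, and 4T07 tumors stood highest. The increase over 67NR was 4.70 in 4T07 (standard error 0.41, adjusted p = 5.10e-07) and 2.84 in 4T1 (standard error 0.41, adjusted p = 8.19e-05) on the log2 scale, and 4T1 was below 4T07 (log2 fold change -1.87, standard error 0.32, adjusted p = 0.0011). Mmp8, the neutrophil collagenase, had 0, 6.99 and 0 CPM in 67NR tumors, 67.0, 29.4 and 28.5 CPM in 4T07 tumors and 10.1, 7.79 and 13.2 CPM in 4T1 tumors. Only replicate 2 of 67NR had any count, and replicate 1 was the highest of 4T07; these libraries also had the highest neutrophil marker sums of their groups. Mmp8 was called higher in 4T07 than in 67NR (log2 fold change 3.89, standard error 0.72, adjusted p = 0.00056). The fitted log2 value was 10.50 without replicate 2 of 67NR, where 67NR is at 0 and the value rests on the prior count, and 3.27 without replicate 1 or 3. It was called lower in 4T1 than in 4T07 (log2 fold change -1.96, standard error 0.58, adjusted p = 0.0344), which was lost without replicate 1 of 4T07 or replicate 1, 2 or 3 of 4T1 (adjusted p = 0.0624 to 0.185, log2 fold change -2.15 to -1.43) and by DESeq2 (adjusted p = 0.428, log2 fold change -1.96). Mmp1a, a mouse counterpart of the human interstitial collagenase, had 0, 0 and 0.282 CPM in 67NR, 0 counts in every 4T07 tumor and 1.65, 1.43 and 0.648 CPM in 4T1. It was called higher in 4T1 than in 67NR (log2 fold change 3.25, standard error 1.10, adjusted p = 0.0377), where 67NR had a single count and the ratio was 13.7 (95% exact interval 2.19 to 571), and 4T1 was at least 1.87-fold above 4T07 (adjusted p = 0.0113), for which DESeq2 gave no adjusted p. The call against 67NR was lost without replicate 1 or 2 of 4T1 or replicate 1 or 2 of 67NR (adjusted p = 0.083 to 0.116, log2 fold change 2.73 to 3.15) and by DESeq2 (adjusted p = 0.112, log2 fold change 3.41). The fitted log2 value was 5.53 without replicate 3 of 67NR, where 67NR is at 0.

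Mmp12 rose more in 4T07 than in 4T1 tumors. It had 13.7, 7.27 and 13.3 CPM in 67NR tumors, 683, 294 and 328 CPM in 4T07 tumors and 77.2, 59.2 and 119 CPM in 4T1 tumors. The groups did not overlap, with 4T07 highest and 67NR lowest. The increase over 67NR was 5.00 in 4T07 (standard error 0.38, adjusted p = 1.29e-07) and 2.71 in 4T1 (standard error 0.36, adjusted p = 3.46e-05) on the log2 scale, and 4T1 was lower than 4T07 (log2 fold change -2.30, standard error 0.32, adjusted p = 0.000181). The stromelysins were ordered otherwise. Mmp10 had 0.538, 0.560 and 0.282 CPM in 67NR tumors, 1.81, 2.72 and 5.08 CPM in 4T07 tumors and 14.8, 16.8 and 26.5 CPM in 4T1 tumors. All 4T1 tumors were above all 4T07 tumors (log2 fold change 2.69, standard error 0.37, adjusted p = 0.000168), and the log2 fold change over 67NR was 2.43 in 4T07 (adjusted p = 0.00553) and 5.12 in 4T1 (adjusted p = 2.18e-06). Mmp3 had 24.5, 15.1 and 21.7 CPM in 67NR tumors, 80.9, 124 and 107 CPM in 4T07 tumors and 162, 185 and 193 CPM in 4T1 tumors, higher than 67NR without overlap in both. Its log2 fold change over 67NR was 2.10 in 4T07 and 2.94 in 4T1 (adjusted p = 1.69e-06 and 6.08e-08). Mmp11, a stromelysin of tumor stroma that is activated inside the cell, had 6.45, 3.36 and 5.08 CPM in 67NR tumors, 13.6, 16.7 and 11.9 CPM in 4T07 tumors and 48.6, 39.6 and 33.7 CPM in 4T1 tumors. These groups did not overlap either. Mmp11 rose over 67NR by 1.26 in 4T07 and 2.83 in 4T1 (adjusted p = 0.00174 and 9.66e-07), and 4T1 was above 4T07 (log2 fold change 1.57, standard error 0.23, adjusted p = 0.000296).

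Of the gelatinases, Mmp9 had 23.7, 22.1 and 19.5 CPM in 67NR tumors, 143, 63.9 and 88.6 CPM in 4T07 tumors and 169.9, 137 and 249 CPM in 4T1 tumors. Every 4T07 and 4T1 tumor was above every 67NR tumor, whereas 4T07 replicate 1 overlapped with 4T1. Mmp9 rose in 4T07 (log2 fold change 1.93, standard error 0.29, adjusted p = 7.97e-05) and in 4T1 (log2 fold change 2.89, standard error 0.29, adjusted p = 2.24e-06), and the 4T1 to 4T07 difference of 0.97 (adjusted p = 0.0208) fell short of the fold limit. It passed without replicate 1 of 4T07 (1.34) and without replicate 1 or 2 of 4T1 (1.03 and 1.16). Mmp2, a gelatinase of fibroblasts, had 22.3, 18.5 and 17.5 CPM in 67NR tumors, 29.5, 30.1 and 24.0 CPM in 4T07 tumors and 42.4, 46.1 and 30.9 CPM in 4T1 tumors. The 4T1 tumors were above the 67NR tumors at a log2 fold change under the limit (log2 fold change 0.84, standard error 0.20, adjusted p = 0.00465), and 4T07 gave 0.28 (adjusted p = 0.289). On library totals the 4T1 difference passed (1.03, adjusted p = 0.00138). Mmp14, the membrane-bound activator of the Mmp2 precursor, had 197, 178 and 189.7 CPM in 67NR tumors, 632, 546 and 442 CPM in 4T07 tumors and 689.6, 674 and 678 CPM in 4T1 tumors. It was separated from 67NR without overlap in 4T07 (log2 fold change 1.27, standard error 0.16, adjusted p = 2.03e-05) and in 4T1 (log2 fold change 1.66, standard error 0.16, adjusted p = 1.91e-06).

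Less studied Mmp genes also differed. Mmp23, a membrane-tethered protease, had 1.34, 0.839 and 0.565 CPM in 67NR tumors, 17.9, 10.7 and 20.3 CPM in 4T07 tumors and 10.2, 11.5 and 15.8 CPM in 4T1 tumors. The 67NR tumors were lowest, and the increase was 3.85 in 4T07 (standard error 0.42, adjusted p = 4.40e-06) and 3.53 in 4T1 (standard error 0.42, adjusted p = 1.36e-05). Mmp20, known from tooth enamel, had 1.61, 0.839 and 0.847 CPM in 67NR tumors, 0, 0 and 0.282 CPM in 4T07 tumors and 0, 0.205 and 0 CPM in 4T1 tumors. It was called lower than 67NR in 4T07 (log2 fold change -3.70, standard error 1.09, adjusted p = 0.0135) and in 4T1 (log2 fold change -3.75, standard error 1.09, adjusted p = 0.0156), on 12 counts in 67NR and 1 count in each of the others. The ratio of 67NR to 4T07 was 15.5 (95% exact interval 2.30 to 664) and of 67NR to 4T1 16.6 (95% exact interval 2.45 to 709). Without replicate 1 of 67NR the gene fell under the count limit and was not tested, and the call in 4T1 was lost without replicate 1 of 4T1 (adjusted p = 0.0574, log2 fold change -3.31). The fitted log2 value was -5.51 without replicate 3 of 4T07 and -5.46 without replicate 2 of 4T1, where those tumors are at 0. Mmp17, Mmp1a and Mmp19 were called higher in 4T1 and not in 4T07, and Mmp27 in 4T07 and not in 4T1, but of these 4 a difference between the lines was called for Mmp1a alone, and not by DESeq2, which gave it no adjusted p. Mmp17 had 3 counts in 67NR and a ratio of 10.6 (95% exact interval 3.40 to 53.4) in 4T1, and Mmp27 had 2 counts in 67NR and a ratio of 8.11 (95% exact interval 1.98 to 71.3) in 4T07. The Mmp27 call was lost without replicate 1 or 3 of 4T07 or replicate 2 or 3 of 67NR (adjusted p = 0.0696 to 0.126, log2 fold change 2.09 to 2.56) and by DESeq2 (adjusted p = 0.0933, log2 fold change 2.81). Mmp19, at 1.01 in 4T1 (adjusted p = 0.0465), was lost without replicate 1, 2 or 3 of 4T1 or replicate 2 or 3 of 67NR (adjusted p = 0.0907 to 0.186, log2 fold change 0.71 to 1.02), by DESeq2 (adjusted p = 0.0865, log2 fold change 0.99), with DESeq2 size factors (adjusted p = 0.0491, log2 fold change 0.98) and with no count filter (adjusted p = 0.0686, log2 fold change 1.02).

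Adamts16 and Adamts8 rose over 67NR tumors in both lines. Adamts16 had 0 counts in every 67NR tumor, 1.61, 4.54 and 1.13 CPM in 4T07 and 1.28, 1.84 and 1.94 CPM in 4T1 tumors. It was at least 2.92-fold higher in 4T07 (adjusted p = 0.00168) and at least 2.03-fold higher in 4T1 (adjusted p = 0.00567). Replicate 2 held most of the 4T07 level, and the fitted log2 value, which rests on the prior count, was 6.41 with it and 5.49 without it. Adamts8 had 1.88, 0.280 and 1.13 CPM in 67NR tumors, 2.01, 12.2 and 5.93 CPM in 4T07 tumors and 32.0, 34.6 and 31.5 CPM in 4T1 tumors. The 4T1 tumors lay close together above all others (log2 fold change 4.66, standard error 0.56, adjusted p = 1.25e-05 against 67NR and log2 fold change 2.31, standard error 0.42, adjusted p = 0.00162 against 4T07). In 4T07 it rose over 67NR (log2 fold change 2.35, standard error 0.62, adjusted p = 0.00667), a call lost without replicate 2 of 4T07 (adjusted p = 0.06, log2 fold change 1.46). The 4T1 values were 5.26 without replicate 1 of 67NR and 3.16 without replicate 2 of 4T07.

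Adamts15 and Adamts5, proteases of aggrecan and versican, rose in both lines. Adamts15 had 4.57, 1.40 and 1.98 CPM in 67NR tumors, 40.3, 27.9 and 52.8 CPM in 4T07 tumors and 12.3, 29.3 and 13.8 CPM in 4T1 tumors, higher than 67NR by 3.66 and 2.58 on the log2 scale (adjusted p = 9.13e-06 and 0.00034). The 4T1 and 4T07 tumors overlapped, and the lower level in 4T1 was called (log2 fold change -1.08, standard error 0.34, adjusted p = 0.0421) but lost without replicate 1 or 3 of 4T07 or replicate 1 or 3 of 4T1 (adjusted p = 0.0982 to 0.182, log2 fold change -1.08 to -0.83). Adamts5 had 12.4, 14.0 and 17.2 CPM in 67NR tumors, 88.7, 63.3 and 88.1 CPM in 4T07 tumors and 42.8, 54.9 and 69.5 CPM in 4T1 tumors, without overlap with 67NR (2.21, adjusted p = 3.27e-06, and 1.74, adjusted p = 3.79e-05). Adamts4 reached 1.12 in 4T07 (adjusted p = 0.000121) and was not called in 4T1 (0.85, adjusted p = 0.00153). Adamts2, which trims procollagens, had log2 fold changes of 1.66 in 4T07 and 2.18 in 4T1 (adjusted p = 7.29e-05 and 6.24e-06). Its relative Adamts14 went the other way in 4T1 (-1.01, adjusted p = 0.0119), and so did Adamts7, which cuts the cartilage matrix protein Comp, in 4T07 (-1.64, adjusted p = 0.000615) and 4T1 (-2.31, adjusted p = 5.90e-05). The Adamts14 call was lost without replicate 1 of 4T1 or replicate 1 of 67NR (adjusted p = 0.0416 to 0.0546, log2 fold change -0.96 to -0.71) and on library totals (adjusted p = 0.0403, log2 fold change -0.82). Adamts10 gave 1.42 in 4T07 and 1.34 in 4T1 (adjusted p = 0.00706 and 0.0129), the second lost without replicate 2 of 4T1 or replicate 2 or 3 of 67NR (adjusted p = 0.0578 to 0.0631, log2 fold change 1.01 to 1.18). Adamts9 gave 1.20 in 4T1 (adjusted p = 0.0154), lost without replicate 3 of 4T1 or replicate 1 of 67NR (adjusted p = 0.0517 to 0.0594, log2 fold change 0.90 to 1.06).

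Among the inhibitors, Timp1 had 87.9, 119 and 107 CPM in 67NR tumors, 111, 168 and 182 CPM in 4T07 tumors and 264, 220.4 and 355 CPM in 4T1 tumors. The 4T1 tumors were above all others, and Timp1 rose against 67NR (log2 fold change 1.22, standard error 0.23, adjusted p = 0.000824), a call lost without replicate 3 of 4T1 (adjusted p = 0.00737, log2 fold change 0.96). Against 4T07 the 4T1 difference was 0.92 (adjusted p = 0.0127), under the fold limit, and it passed without replicate 3 of 4T07 (1.07) or replicate 2 of 4T1 (1.07). Timp2, which takes part in the activation of the Mmp2 precursor, had 1776, 1403 and 1272 CPM in 67NR tumors, 1103, 824 and 1315 CPM in 4T07 tumors and 995, 1048 and 1017 CPM in 4T1 tumors, a difference within the fold limit (-0.70, adjusted p = 0.00967, and -0.74, adjusted p = 0.00932). Timp3 had 4.30, 4.20 and 3.67 CPM in 67NR tumors, 7.83, 6.71 and 11.0 CPM in 4T07 tumors and 5.67, 3.69 and 7.12 CPM in 4T1 tumors, and no comparison was called. On library totals it passed in 4T07 against 67NR (1.05, adjusted p = 0.021, against 0.80 and 0.0718 with TMM factors). Timp4 stayed between 0.216 and 1.34 CPM in all 9 tumors.

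Of 26 genes that activate or inhibit these proteases, 24 were tested in tumors, and 12 were higher and 1 lower in 4T07, and 14 higher and 1 lower in 4T1, than in 67NR. The called genes with the largest changes in 4T07 were the neutrophil serine proteases Elane (7.01), Ctsg (6.60) and Prtn3 (4.53) and the plasminogen activator inhibitor Serpinb2 (6.09). In 4T1 they were Serpinb2 (5.11), Thbs1 (3.72), Thbs2 (3.61) and Lcn2, the lipocalin that binds Mmp9 (3.86, 111 ± 43.0 CPM against 6.67 ± 3.45 CPM, SD, n = 3). Of 9 tested substrates of these enzymes, 4 rose in 4T07 and 7 in 4T1. Of the 7 Adamts-like genes, which carry no protease domain, 3 rose and 1 fell in 4T07 and 3 rose in 4T1. Over all genes tested, 17.1% were called higher and 11.8% lower in 4T07, and 11.6% higher and 9.07% lower in 4T1. Cell type markers also differed, in both directions. Fibroblast markers summed to 999 to 1176 CPM in 67NR tumors, 4893 to 7207 CPM in 4T07 tumors and 5916 to 9052 CPM in 4T1 tumors, with 6 of 7 called higher in each. Epithelial markers summed to 18.3 to 30.2 CPM, 165 to 226 CPM and 988 to 1102 CPM, with 5 and 6 of 6 called. Neutrophil markers summed to 23.4 to 377 CPM, 1012 to 5215 CPM and 525 to 819 CPM, with 8 and 3 of 9 called. Markers of giant cells and osteoclasts summed to 34.4 to 41.7 CPM in 67NR, 79.8 to 138 CPM in 4T07 and 143 to 164 CPM in tumors of 4T1, with 4 of 5 tested called higher in each line; Oscar and Calcr were at 0 in 67NR and Oscar in 4T07. Macrophage markers summed to 2054 to 2363 CPM in 67NR, 2155 to 2805 CPM in 4T07 and 1655 to 1996 CPM in tumors of 4T1, with 1 of 8 called higher and 2 lower in 4T07, and 1 higher and 1 lower in 4T1. Markers of B cells and spleen were called higher in 3 of 4 in 4T07 and 1 of 4 in 4T1, erythroid markers in 3 of 4 in 4T07, and lung epithelium markers lower in 4 and 5 of 5. Skeletal muscle markers were called lower in 3 of 4 in 4T07. In 4T1, endothelial markers were called lower in 1 of 5, erythroid markers lower in 1 of 4 and fat cell markers higher in 2 of 4. The part of these markers in the members' changes was not tested.

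Few members were called between the scaffold groups. In 67NR scaffolds, 0 of 40 tested members were called against control by edgeR's test (0% of all genes), with 4 at an unadjusted p under 0.05 (2.83% of all genes) and 0 called by DESeq2. In 4T1 scaffolds, 0 of 40 were called (0.0226% of all genes), with 8 at an unadjusted p under 0.05 (12.1% of all genes) and 1, Mmp13, called by DESeq2. The 4T1 and 4T07 scaffolds gave 0 calls (1% of all genes), with 6 at an unadjusted p under 0.05 (15.1% of all genes) and 0 by DESeq2. In 4T07 scaffolds, 3 members were called (7.44% of all genes, 3.85% higher and 3.59% lower). The 4T07 and control scaffolds did not overlap for 10 of the 40 members (33% of all genes).

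Mmp3 was lower in 4T07 scaffolds, with 234, 257 and 236 CPM against 392, 591 and 505 CPM in control scaffolds. The groups did not overlap (log2 fold change -1.17, standard error 0.16, adjusted p = 0.000626). Mmp3 had 447, 476 and 484 CPM in 67NR and 414, 416 and 393 CPM in 4T1 scaffolds. Mmp8 was higher, with 56.5, 31.4 and 38.8 CPM in 4T07 against 10.9, 25.0 and 11.3 CPM in control scaffolds, where replicate 2 was the highest control (log2 fold change 1.28, standard error 0.27, adjusted p = 0.00664). The 9 neutrophil markers summed to 1933 to 8599 CPM in 4T07 scaffolds, highest in replicate 1 as Mmp8 was, and to 264 to 1752 CPM in controls, highest in replicate 2, with 7 of 9 called higher; their part in the Mmp8 difference was not tested. Adamts14 had 2.57, 4.72 and 4.35 CPM in 4T07 and 0.839, 1.90 and 1.42 CPM in control scaffolds, without overlap (log2 fold change 1.29, standard error 0.38, adjusted p = 0.034). The call was lost without replicate 2 or 3 of 4T07 or replicate 1 of the controls (adjusted p = 0.102 to 0.121, log2 fold change 1.08 to 1.19). Without replicate 3 of the controls, 5 members were called in 4T07 scaffolds, with Adamts8 and Mmp13 added.

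Mmp9 had 304, 628 and 748 CPM in control, 289, 534 and 485 CPM in 67NR, 874, 981 and 718 CPM in 4T07 and 681, 1432 and 769 CPM in 4T1 scaffolds. The controls overlapped with every other group, while all 67NR scaffolds were below all 4T07 and 4T1 scaffolds, and the 4T1 difference from control was 0.67 (adjusted p = 0.394). Mmp14 had 351, 657 and 603 CPM in control and 821, 949 and 738 CPM in 4T07 scaffolds, 583, 562 and 632 CPM in 67NR and 561, 664 and 627 CPM in 4T1 scaffolds. The 4T07 scaffolds were the highest, at a log2 fold change of 0.51 that was not called (adjusted p = 0.102). Mmp2 had 122, 166 and 196 CPM in control, 100.1, 188 and 166 CPM in 67NR, 125, 123 and 109 CPM in 4T07 and 155, 165 and 147 CPM in 4T1 scaffolds, with no call. Of 25 tested activators and inhibitors, 4 rose and 1 fell in 4T07 scaffolds (3.85% and 3.59% of all genes). The risen genes with the largest changes were Elane, at 0 in all control scaffolds and at least 21.2-fold higher, Prtn3 (5.28), Ctsg (4.76) and Lcn2 (3.5).

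Lungs of 4T07 and 4T1 mice had high levels of the neutrophil genes Mmp8, Mmp9 and Mmp25. In 4T07 lungs, 16 of 37 tested members were called against control, 7 higher and 9 lower, where 29% of all genes were called (15.3% higher, 13.7% lower). In 4T1 lungs, 3 were called, all higher (4.61% of all genes, 3.56% higher). In 67NR lungs, 0 were called by edgeR's test (4.25% of all genes), with 9 at an unadjusted p under 0.05 (22.8% of all genes) and 0 by DESeq2. The 4T07 and 4T1 comparisons share the control lungs. Between 4T1 and 4T07 lungs, 11 members were called, 8 higher and 3 lower in 4T1 (23.5% of all genes, 11.6% higher, 11.9% lower). The libraries did not overlap for 20 of the 37 members between 4T07 and control lungs (52.2% of all genes), 9 between 4T1 and control (27.1%) and 16 between 4T1 and 4T07 (48.4%).

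Mmp8 had 16.4, 13.3 and 9.87 CPM in control, 12.6, 9.42 and 9.40 CPM in 67NR, 188, 187 and 244 CPM in 4T07 and 376, 575 and 172 CPM in 4T1 lungs. Every 4T07 and 4T1 lung was above every control and 67NR lung (log2 fold change 4.03, standard error 0.32, adjusted p = 3.65e-09 in 4T07 and log2 fold change 4.83, standard error 0.33, adjusted p = 3.84e-09 in 4T1). Mmp9 had 6.28, 8.66 and 6.15 CPM in control, 10.5, 15.6 and 12.3 CPM in 67NR, 122, 171 and 129.5 CPM in 4T07 and 208, 278 and 104 CPM in 4T1 lungs. It rose without overlap in 4T07 (log2 fold change 4.39, standard error 0.30, adjusted p = 3.92e-10) and in 4T1 (log2 fold change 4.82, standard error 0.30, adjusted p = 1.01e-09), and its 67NR levels lay just above control at a log2 fold change of 0.77 (adjusted p = 0.152). Mmp25, a protease anchored in the neutrophil membrane, had 1.57, 1.62 and 1.62 CPM in control, 1.92, 2.92 and 1.45 CPM in 67NR, 27.5, 40.7 and 24.1 CPM in 4T07 and 54.4, 78.7 and 22.2 CPM in 4T1 lungs. The same separation held (log2 fold change 4.31, standard error 0.43, adjusted p = 8.21e-08 in 4T07 and log2 fold change 5.01, standard error 0.42, adjusted p = 7.57e-08 in 4T1). In all 3 genes, replicate 3 was the lowest and replicate 2 the highest of the 4T1 lungs. The 9 neutrophil markers summed to 235 to 296 CPM in control, 244 to 281 CPM in 67NR, 23572 to 28270.3 CPM in 4T07 and 11649 to 27620.0 CPM in 4T1 lungs, lowest in 4T1 replicate 3, with 9 of 9 called higher in 4T07 and in 4T1 and none at 0. Their part in the rise of Mmp8, Mmp9 and Mmp25 was not tested.

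**Figure D3:**
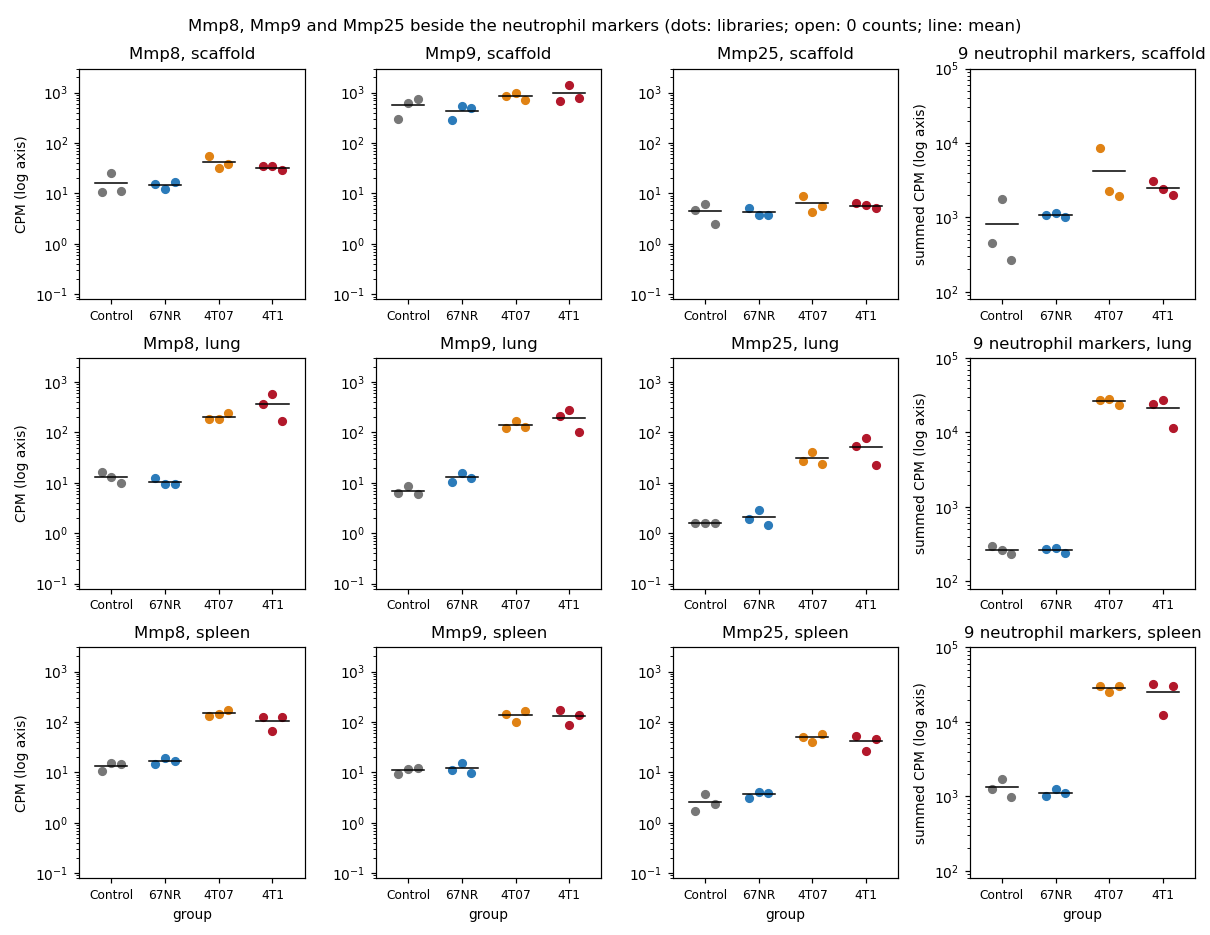
Mmp8, Mmp9, Mmp25 and the summed level of 9 neutrophil markers in every scaffold, lung and spleen library (CPM on a log axis, points for libraries, lines for group means) by group. Lungs and spleens of 4T07 and 4T1 mice lie above those of control and 67NR mice in all 3 genes and in the markers, and the scaffold groups lie closer together.

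The members that fell in 4T07 lungs were Mmp2, Mmp3, Mmp11, 5 Adamts genes and Timp3. Mmp2 had 36.1, 49.1 and 30.4 CPM in control, 26.8, 34.9 and 29.5 CPM in 67NR, 4.66, 5.78 and 9.76 CPM in 4T07 and 26.2, 20.3 and 27.0 CPM in 4T1 lungs. The 4T07 lungs were below all others (log2 fold change -2.45, standard error 0.25, adjusted p = 9.57e-08), and 4T1 exceeded 4T07 (log2 fold change 1.82, standard error 0.25, adjusted p = 7.45e-06). Its 4T1 level was below control with an adjusted p of 0.0714 at a log2 fold change under the limit (-0.64). Adamts1, a protease of versican and aggrecan, had 153, 143 and 146 CPM in control, 105, 147 and 117 CPM in 67NR, 25.4, 22.5 and 38.6 CPM in 4T07 and 120.1, 142 and 152 CPM in 4T1 lungs. The 4T07 lungs stood apart (log2 fold change -2.29, standard error 0.19, adjusted p = 5.88e-09 against control and log2 fold change 2.21, standard error 0.19, adjusted p = 1.43e-08 for 4T1 against 4T07). Adamts8 had 15.0, 6.61 and 17.4 CPM in 4T07 against 48.1, 54.5 and 48.9 CPM in control lungs, again without overlap (log2 fold change -1.90, standard error 0.22, adjusted p = 5.84e-07). Against 4T07 lungs, Adamts8 (2.11), Adamts17 (1.79) and Adamts2 (1.57) were called higher in 4T1. The remaining fallen members were Adamts17 (-2.14), Mmp3 (-2.00), Adamts2 (-1.90), Mmp11 (-1.78), Adamts9 (-1.61) and Timp3 (-1.08), on the log2 scale against control. The Timp3 call was lost without replicate 1 of 4T07 or replicate 3 of the controls (adjusted p = 0.0467 to 0.0744, log2 fold change -0.80 to -0.64).

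The other members that rose in 4T07 lungs were Adamts4, Mmp16, Adamts13 and Adamts3. Adamts4 had 1.27, 2.48 and 1.74 CPM in 4T07 against 0.523, 0.180 and 0.486 CPM in control lungs (log2 fold change 2.20, standard error 0.56, adjusted p = 0.00329) and 0.644, 0.424 and 0.899 CPM in 4T1 lungs. The 4T07 lungs were above both (log2 fold change -1.51, standard error 0.51, adjusted p = 0.0232 for 4T1 against 4T07), and the second call was lost without replicate 2 of 4T07 (adjusted p = 0.13, log2 fold change -1.23). Mmp16, a membrane-bound protease, had 5.72, 6.61 and 5.64 CPM in 4T07 and 2.27, 1.26 and 1.94 CPM in control lungs (log2 fold change 1.76, standard error 0.35, adjusted p = 0.000364). Adamts13 had 11 counts in 4T07 and a single count in control lungs, a ratio of 13.5 (95% exact interval 1.97 to 583), and Adamts3 gave 1.73 at an adjusted p of 0.099, a call lost without replicate 1 or 3 of 4T07 or replicate 1 or 3 of the controls (adjusted p = 0.112 to 0.352, log2 fold change 1.19 to 1.89), by DESeq2 (adjusted p = 0.208, log2 fold change 1.84), with no count filter (adjusted p = 0.188, log2 fold change 1.70) and on library totals (adjusted p = 0.11, log2 fold change 1.67). Mmp14 had 83.3, 69.2 and 78.0 CPM in control, 102, 93.2 and 98.2 CPM in 67NR, 67.7, 43.6 and 70.1 CPM in 4T07 and 83.4, 76.8 and 68.2 CPM in 4T1 lungs, with no call.

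**Figure D4:**
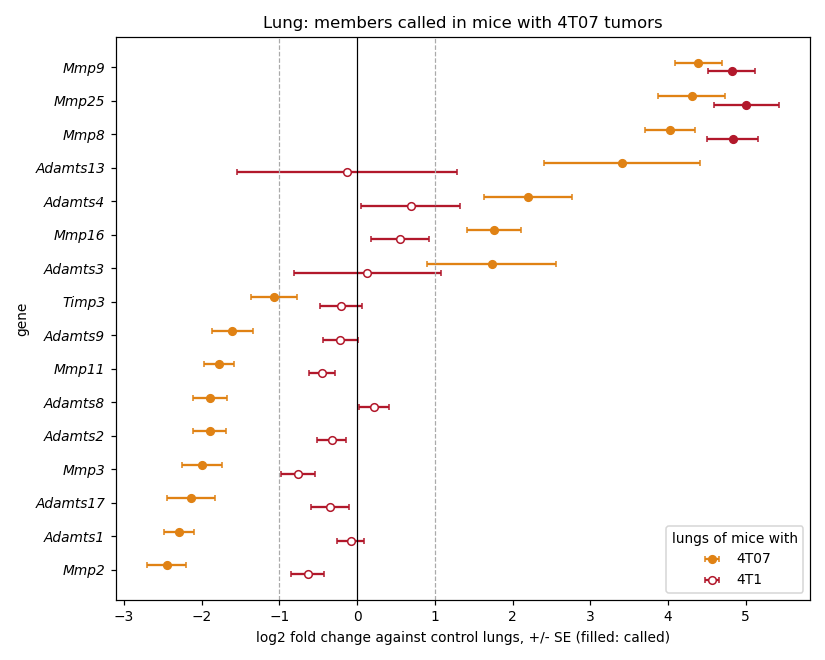
Log2 fold change against control lungs, with its standard error, of the 16 members called in 4T07 lungs, for 4T07 and for 4T1 lungs (filled symbols where called, dashed lines at a fold of 2). Mmp8, Mmp9 and Mmp25 lie to the right for both, and the 9 fallen members lie to the left of the dashed line for 4T07 alone.

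Markers of resident lung cells fell in 4T07 lungs, and those of erythroid cells and B cells rose. Fibroblast markers summed to 550.2 to 755 CPM against 1218 to 1422 CPM in control lungs, with 1 of 7 called higher and 4 lower. Endothelial markers summed to 768 to 1230.2 CPM against 2492 to 2609.6 CPM with 4 of 5 called lower, and 4 of 5 lung epithelium markers were called lower. Erythroid markers summed to 715 to 1073 CPM against 5.99 to 11.7 CPM with 4 of 4 called higher. The 4 markers of B cells and spleen summed to 198 to 269.6 CPM in 4T07 lungs, 49.4 to 64.7 CPM in control lungs and 32.6 to 35.8 CPM in 4T1 lungs, with 4 of 4 called higher in 4T07 than in control and 4 of 4 lower in 4T1 than in 4T07. Mmp16, which rose in 4T07 lungs, had 13.8, 11.8 and 15.7 CPM in control spleens and was called lower in 4T07 spleens. Mmp17, whose highest group mean was also in control spleens (6.70 CPM), was not called in 4T07 lungs. Its means were 3.45 CPM in 4T07 and 2.98 CPM in control lungs. Of 8 macrophage markers, 2 were called higher in 4T07 lungs. The part of these markers in the members' differences was not tested. Of 23 tested activators and inhibitors, 7 rose and 4 fell in 4T07 lungs (15.3% and 13.7% of all genes) and 4 rose in 4T1 lungs (3.56%). The largest were Elane (10.70), Ctsg (10.13), Prtn3 (10.02) and Lcn2 (3.55) in 4T07, against 5.40, 5.73, 5.51 and 2.44 in 4T1. For 4T1 against 4T07, 5 rose and 7 fell (11.6% and 11.9% of all genes), among them Elane (-5.30), Prtn3 (-4.51) and Ctsg (-4.41). Of 10 tested substrates, 4 fell in 4T07 lungs (13.7% of all genes).

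Spleens of 4T07 and 4T1 mice also had high Mmp8, Mmp9 and Mmp25. In 4T07 spleens, 12 of 38 tested members were called against control, 7 higher and 5 lower, where 18.6% of all genes were called (8.26% higher, 10.3% lower). In 4T1 spleens, 9 were called, 6 higher and 3 lower (19.9% of all genes, 9.84% higher, 10% lower). On library totals without TMM factors, the 4T1 split became 3 higher and 6 lower, and with DESeq2 size factors 5 and 4. In 67NR spleens, 0 were called by edgeR's test (2.26% of all genes), with 2 at an unadjusted p under 0.05 (17.6% of all genes) and 0 by DESeq2. Between 4T1 and 4T07 spleens, 0 were called (2.33% of all genes), with 7 at an unadjusted p under 0.05 (16.5% of all genes) and 0 by DESeq2. The libraries did not overlap for 14 of the 38 members between 4T07 and control spleens (39.2% of all genes) and 17 between 4T1 and control (44.1%). The 4T07 and 4T1 comparisons share the control spleens.

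Mmp8 had 10.5, 15.2 and 14.4 CPM in control, 14.7, 19.4 and 17.0 CPM in 67NR, 129, 146 and 172 CPM in 4T07 and 127, 65.6 and 123 CPM in 4T1 spleens. All 4T07 and 4T1 spleens were above all others (log2 fold change 3.66, standard error 0.27, adjusted p = 1.13e-07 in 4T07 and log2 fold change 3.24, standard error 0.26, adjusted p = 4.03e-07 in 4T1). Mmp9 had 9.13, 11.8 and 12.1 CPM in control, 11.3, 15.3 and 9.87 CPM in 67NR, 141, 97.7 and 165 CPM in 4T07 and 176, 88.4 and 138 CPM in 4T1 spleens. The order was the same (log2 fold change 3.78, standard error 0.28, adjusted p = 1.38e-07 in 4T07 and log2 fold change 3.87, standard error 0.28, adjusted p = 1.26e-07 in 4T1). Mmp25 had 1.75, 3.69 and 2.37 CPM in control, 3.14, 4.09 and 3.81 CPM in 67NR, 51.1, 40.0 and 56.7 CPM in 4T07 and 51.8, 26.7 and 46.8 CPM in 4T1 spleens, without overlap (log2 fold change 4.41, standard error 0.31, adjusted p = 8.79e-08 in 4T07 and log2 fold change 4.27, standard error 0.31, adjusted p = 1.26e-07 in 4T1). Replicate 2 was the lowest 4T1 spleen in all 3. Neutrophil markers summed to 982 to 1724 CPM in control, 24861 to 30508 CPM in 4T07 and 12573 to 32818 CPM in 4T1 spleens, lowest in 4T1 replicate 2, with 9 of 9 called higher in each and none at 0. Their part in the rise was not tested.

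Mmp23 fell in the spleens, with 16.1, 18.7 and 32.8 CPM in control, 26.4, 27.8 and 24.9 CPM in 67NR, 4.74, 7.59 and 9.74 CPM in 4T07 and 5.27, 9.06 and 4.80 CPM in 4T1. The controls lay above both without overlap (log2 fold change -1.44, standard error 0.30, adjusted p = 0.00226 in 4T07 and log2 fold change -1.56, standard error 0.31, adjusted p = 0.00128 in 4T1). Adamts6 fell too, with 6.99, 5.77 and 4.31 CPM in control, 6.91, 6.39 and 6.73 CPM in 67NR, 2.47, 1.04 and 1.72 CPM in 4T07 and 1.20, 1.47 and 2.28 CPM in 4T1 (log2 fold change -1.56, standard error 0.37, adjusted p = 0.00493 in 4T07 and log2 fold change -1.51, standard error 0.37, adjusted p = 0.00623 in 4T1). Adamts12, which cuts Comp as Adamts7 does, had 0.959, 0.245 and 0.457 CPM in 4T1 against 0.971, 1.62 and 3.45 CPM in control spleens (log2 fold change -1.55, standard error 0.63, adjusted p = 0.0789). Its groups were separated by a small margin. The call was lost without replicate 2 or 3 of 4T1 or replicate 3 of the controls (adjusted p = 0.179 to 0.329, log2 fold change -1.46 to -0.97) and by DESeq2 (adjusted p = 0.107, log2 fold change -1.62), and the log2 value was -2.16 without replicate 1 of 4T1. Adamts3 was called in 4T1 on 8 counts against 2, a ratio of 4.47 (95% exact interval 0.892 to 43.2), and this call was lost without replicate 1, 2 or 3 of 4T1 or replicate 1, 2 or 3 of the controls (adjusted p = 0.121 to 0.22, log2 fold change 1.74 to 2.50), by DESeq2 (adjusted p = 0.192, log2 fold change 2.39), with no count filter (adjusted p = 0.194, log2 fold change 2.18) and on library totals (adjusted p = 0.124, log2 fold change 1.97). In 4T07 spleens Mmp16 (-1.01) and Mmp17 (-1.25) were called lower, and Adamts7 (1.92), Mmp3 (1.64) and Adamts4 (1.29) higher, the last 3 with overlapping groups. The call of Mmp16 was lost without replicate 2 of 4T07 or replicate 1 or 3 of the controls (adjusted p = 0.0122 to 0.0267, log2 fold change -1.0 to -0.86). The call of Mmp17 was lost without replicate 3 of 4T07 (adjusted p = 0.0797, log2 fold change -1.0). The call of Adamts7 was lost without replicate 1 or 3 of 4T07 or replicate 1 or 2 of the controls (adjusted p = 0.102 to 0.227, log2 fold change 1.36 to 2.01) and by DESeq2 (adjusted p = 0.128, log2 fold change 2.07). The call of Mmp3 was lost without replicate 1 or 2 of 4T07 or replicate 2 or 3 of the controls (adjusted p = 0.117 to 0.179, log2 fold change 1.16 to 1.58). The call of Adamts4 was lost without replicate 1 of 4T07 or replicate 2 or 3 of the controls (adjusted p = 0.146 to 0.423, log2 fold change 0.68 to 1.24), by DESeq2 (adjusted p = 0.172, log2 fold change 1.30) and on library totals (adjusted p = 0.12, log2 fold change 1.13).

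Mmp2 and Mmp14 were called in no spleen comparison. Mmp2 had 6.21, 6.92 and 3.67 CPM in control, 2.72, 3.58 and 5.16 CPM in 67NR, 7.62, 3.80 and 4.87 CPM in 4T07 and 2.40, 3.43 and 5.48 CPM in 4T1 spleens, all overlapping. Mmp14 had 41.0, 35.5 and 36.9 CPM in control, 47.7, 43.9 and 42.8 CPM in 67NR, 51.7, 48.7 and 20.9 CPM in 4T07, lowest in replicate 3, and 43.6, 40.9 and 52.1 CPM in 4T1 spleens. Of 24 tested activators and inhibitors, 10 rose and 3 fell in 4T07 spleens (8.26% and 10.3% of all genes), and 8 rose and 3 fell in 4T1 spleens (9.84% and 10%). The largest were Lcn2 (6.87 in 4T07, 6.13 in 4T1), Prtn3 (6.59, 7.39), Elane (6.59, 6.28) and Ctsg (6.54, 7.53). Erythroid markers summed to 568 to 661 CPM in control, 1199.5 to 1283 CPM in 4T07 and 1535 to 1633 CPM in 4T1 spleens, with 3 and 4 of 4 called higher. Endothelial markers summed to 324 to 429.7 CPM in control, 169.8 to 205 CPM in 4T07 and 122 to 193 CPM in 4T1 spleens, with 0 and 4 of 5 called lower. Beside the members that fell, markers of B cells and spleen summed to 562 to 659.7 CPM in control, 199 to 260.3 CPM in 4T07 and 143 to 230.4 CPM in 4T1 spleens, with 3 of 4 called lower in each. Fibroblast markers were called lower in 2 of 7 in each line, and macrophage markers in 0 and 2 of 8. Lung epithelium markers were called higher in 4 of 5 in 4T07 and 1 of 5 in 4T1 spleens. Skeletal muscle markers were called higher in 4 of 4 in 4T07 and lower in 1 of 4 in 4T1 spleens. Their part in the members' differences was not tested.

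The Timp genes had unequal levels in the tissues of healthy mice. Timp1 had 202, 229 and 237 CPM in control scaffolds, 6.28, 6.67 and 5.18 CPM in control lungs and 5.05, 3.23 and 3.23 CPM in control spleens. The scaffolds were far above both (log2 fold change 5.41, standard error 0.20, adjusted p = 6.76e-11 against lungs and log2 fold change 6.01, standard error 0.21, adjusted p = 6.09e-11 against spleens). In scaffolds of tumor-bearing mice it had 252, 199.9 and 233 CPM with 67NR, 164, 214 and 152 CPM with 4T07 and 142, 184 and 202 CPM with 4T1, all without a call, and in lungs, in the same order, 5.36, 6.50 and 3.33 CPM, 8.26, 7.02 and 4.56 CPM and 5.63, 4.52 and 4.20 CPM. In spleens it had 2.93, 3.83 and 4.93 CPM with 67NR, 19.6, 11.4 and 6.87 CPM with 4T07 and 7.43, 5.39 and 8.45 CPM with 4T1. All 4T07 and 4T1 spleens were above all controls (log2 fold change 1.87, standard error 0.35, adjusted p = 0.000827 in 4T07 and log2 fold change 1.13, standard error 0.36, adjusted p = 0.029 in 4T1). The 4T1 call was lost without replicate 3 of 4T1 or replicate 2 or 3 of the controls (adjusted p = 0.0984 to 0.124, log2 fold change 0.94 to 1.01) and on library totals (adjusted p = 0.0856, log2 fold change 0.87).

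**Figure D5:**
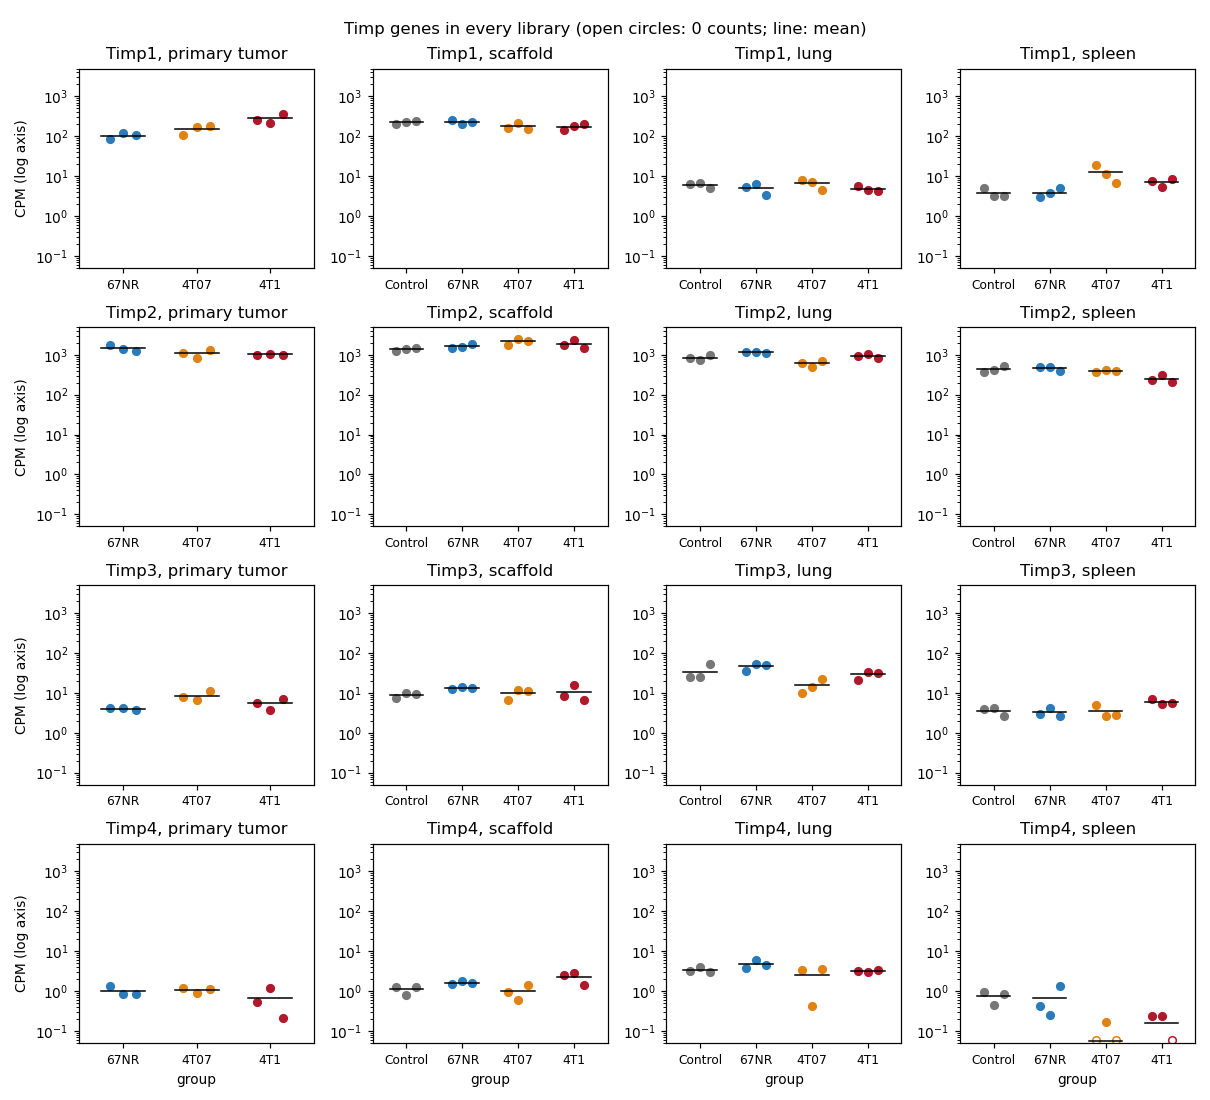
Timp1, Timp2, Timp3 and Timp4 in every library of the 4 tissues (CPM on a log axis, points for libraries, lines for group means, open circles for 0 counts). Timp1 is higher in tumors and scaffolds than in lungs and spleens, and Timp3 and Timp4 are highest in lungs.

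Timp2 had 1279.7, 1416 and 1493 CPM in control scaffolds, 832, 726 and 975 CPM in control lungs and 372, 409.5 and 516 CPM in control spleens, the scaffolds above the lungs and the lungs above the spleens without overlap. With tumors it had 1501, 1556 and 1827 CPM (67NR), 1790.1, 2454 and 2238 CPM (4T07) and 1809, 2383 and 1455 CPM (4T1) in scaffolds. In lungs it had 1198, 1204 and 1092 CPM (67NR), 607, 504 and 717 CPM (4T07) and 919.5, 1024 and 842 CPM (4T1). In spleens it had 485, 489 and 394 CPM (67NR), 367, 409 and 386 CPM (4T07) and 227, 303 and 214 CPM (4T1). No within-tissue change of Timp2 reached a fold of 2. The 4T07 lungs were below control (-0.41, adjusted p = 0.0374) and the 4T1 spleens were below control (-0.55, adjusted p = 0.0307) within that limit.

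Timp3 had 7.55, 10.1 and 9.29 CPM in control scaffolds, 24.6, 25.4 and 52.1 CPM in control lungs and 3.88, 4.15 and 2.59 CPM in control spleens. Lungs were highest and overlapped with neither. In lungs of tumor-bearing mice it had 36.4, 53.4 and 50.3 CPM with 67NR, 9.74, 13.8 and 22.8 CPM with 4T07 and 21.2, 33.6 and 32.4 CPM with 4T1, and in spleens 2.93, 4.09 and 2.69 CPM, 4.94, 2.59 and 2.86 CPM and 7.19, 5.39 and 5.48 CPM. In scaffolds it had 12.2, 13.8 and 13.6 CPM, 6.73, 12.0 and 10.9 CPM and 8.33, 15.7 and 6.82 CPM in the same order, with no call. Timp3 was called higher in 4T1 spleens (log2 fold change 1.01, standard error 0.32, adjusted p = 0.0276), at the fold limit. It was lost without replicate 1 of 4T1 or replicate 3 of the controls (adjusted p = 0.112 to 0.117, log2 fold change 0.78 to 0.87), by DESeq2 (adjusted p = 0.0563, log2 fold change 0.99), with DESeq2 size factors (adjusted p = 0.0331, log2 fold change 0.98), with no count filter (adjusted p = 0.0446, log2 fold change 0.98) and on library totals (adjusted p = 0.0932, log2 fold change 0.76).

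Timp4 was scarce, with 1.26, 0.792 and 1.26 CPM in control scaffolds, 3.14, 4.15 and 3.08 CPM in control lungs and 0.971, 0.461 and 0.862 CPM in control spleens. In scaffolds of tumor-bearing mice it had 1.48, 1.77 and 1.64 CPM with 67NR, 0.979, 0.590 and 1.40 CPM with 4T07 and 2.61, 2.80 and 1.44 CPM with 4T1, the 4T1 scaffolds having the highest mean without a call (0.93, adjusted p = 0.399). In lungs it had 3.83, 6.01 and 4.63 CPM with 67NR, 3.39, 0.413 and 3.69 CPM with 4T07 and 3.22, 3.11 and 3.30 CPM with 4T1. Replicate 2 of the 4T07 lungs was low. In spleens it had 0.419, 0.255 and 1.35 CPM with 67NR, 0, 0.173 and 0 CPM with 4T07 and 0.240, 0.245 and 0 CPM with 4T1. It was called lower in 4T07 spleens (log2 fold change -2.89, standard error 1.09, adjusted p = 0.061) on a single count against 11, a ratio of control to 4T07 of 11.0 (95% exact interval 1.60 to 474). The call was lost without replicate 1 or 3 of 4T07 or replicate 1 or 3 of the controls (adjusted p = 0.106 to 0.169, log2 fold change -2.83 to -2.40) and by DESeq2 (adjusted p = 0.136, log2 fold change -3.14). The fitted log2 value was -4.76 without replicate 2 of 4T07, where 4T07 is at 0.

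The response to a 4T1 tumor was compared between tissues by the difference of the 4T1 to control log2 fold changes, called at an adjusted p under 0.1. Between scaffold and lung, 3 of 44 tested members differed (1.05% of all genes), between scaffold and spleen 9 (15.2% of all genes), and between lung and spleen 9 (16.8% of all genes). The last count was 5 without replicate 2 of the control lungs, replicate 3 of the control spleens, replicate 2 of the 4T1 lungs or replicate 1 of the 4T1 spleens. As ratios to control, Mmp8, Mmp9 and Mmp25 rose less in scaffolds than in lungs, with differences of -3.89, -4.14 and -4.72 on the log2 scale (adjusted p = 7.06e-07, 3.98e-07 and 1.34e-06). They also rose less in scaffolds than in spleens, with differences of -2.32, -3.21 and -4.01 (adjusted p = 0.000646, 1.57e-05 and 1.35e-05). Mmp8 was the gene of these that differed between lung and spleen (1.57, adjusted p = 0.0174), with the larger rise in the lung, a call lost without replicate 2 of 4T1 lung (adjusted p = 0.101, log2 fold change 1.12). The control level of Mmp9 was far higher in scaffolds than in lungs or spleens. In CPM its mean rose more in scaffolds, where the change was not called.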

How the data were processed

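RNA of 45 tissue samples (3 per group, 15 groups) was sequenced from the 3′ end with QuantSeq. The authors deposited raw counts per gene symbol. The submitters' processing notes name Trim Galore 0.5.0, STAR 2.6.0 and featureCounts; the genome build, the annotation and any use of the molecular identifiers of the kit are not given in the sources used here. The table held 55487 lines, of which 120 repeated a symbol and were summed, and its library columns were matched to samples by the numbers in the labels. CPM is the count divided by the library total. Genes with over 10 counts over the libraries of a fit were tested in edgeR 4.0.16 (R 4.3.3; TMM factors, quasi-likelihood test, Benjamini-Hochberg adjustment over all genes tested), with 1 fit per tissue for its groups, 1 for the control mice and 1 over scaffold, lung and spleen for the differences between tissues. Scripts were tested on simulated counts. Alternatives were DESeq2 1.42.0, its size factors in edgeR, no count filter, library totals and leaving out each library. Ratios on 1 to 3 counts carry exact 95% intervals of the pooled counts, which cover counting error only. Levels per group are mean ± SD. No pair of libraries was identical. Promoter sequences are from RefSeq (GRCm38.p6) and were matched by symbol.

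The members, the gene lists and the cell type markers were chosen with earlier results of these data known. Named with every library's value were up to 6 members per comparison within a tissue, those with the largest change among the called members whose groups did not overlap and whose mean reached 1 CPM in a group, together with the Timp genes, Mmp2, Mmp9 and Mmp14. Up to 4 genes per comparison were named from the other lists. Any other gene named was chosen after its values were seen.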

Additional observations from a re-analysis of the deposited data

Results flagged for a closer look

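The 4T1 response (4T1 against control, log2 scale) differed between 2 tissues in 21 cases over 14 members, by edgeR's quasi-likelihood test of the difference itself with an adjusted p under 0.1. For scaffold minus lung 3 of 44 members were called, where 1.05% of all genes were. For scaffold minus spleen 9 of 44 were called (15.2% of all genes), and for lung minus spleen 9 of 44 (16.8% of all genes). Values are the response in the first tissue minus that in the second. Scaffold minus lung gave -3.89 for Mmp8, -4.14 for Mmp9 and -4.72 for Mmp25. Scaffold minus spleen gave -2.32 for Mmp8, -3.21 for Mmp9 and -4.01 for Mmp25. These 6 calls held in every alternative run. They compare ratios to control, and the control level of Mmp9 was far higher in scaffolds than in lungs or spleens. The neutrophil markers were called higher in 9 of 9 in 4T1 lungs and spleens. In 4T1 scaffolds 0 of 9 were called, where 0.0226% of all genes were called. Their sum was 1981 to 3068 CPM in 4T1 scaffolds and 264 to 1752 CPM in control scaffolds, without overlap. The part of these markers was not tested.

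For scaffold minus spleen, Timp1 gave -1.57 (adjusted p = 0.00521), with a response of -0.45 in scaffolds and 1.13 in spleens. Timp2 gave 0.86 (adjusted p = 0.0204) and Mmp23 gave 1.62 (adjusted p = 0.00226). Timp4 gave 2.85 (adjusted p = 0.0765), a call lost without replicate 1 or 2 of 4T1 scaffold or replicate 1 or 3 of 4T1 spleen or replicate 2 of control scaffold or replicate 1 or 3 of control spleen (adjusted p = 0.111 to 0.213, log2 fold change 2.32 to 3.22). Adamts6 gave 1.78 (adjusted p = 0.0361), lost without replicate 1 of 4T1 spleen or replicate 2 of control scaffold (adjusted p = 0.1 to 0.102, log2 fold change 1.56 to 1.59). Adamts14 gave 1.99 (adjusted p = 0.095), lost without replicate 1 or 3 of 4T1 scaffold or replicate 2 or 3 of 4T1 spleen or replicate 1 or 3 of control scaffold or replicate 2 or 3 of control spleen (adjusted p = 0.115 to 0.295, log2 fold change 1.52 to 2.01) and with no count filter (adjusted p = 0.136, log2 fold change 1.98).

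For lung minus spleen, Mmp23 gave 1.79 (adjusted p = 0.00135), Timp1 -1.47 (adjusted p = 0.0211) and Adamts10 1.02 (adjusted p = 0.0253). Mmp8 gave 1.57 (adjusted p = 0.0174), lost without replicate 2 of 4T1 lung (adjusted p = 0.101, log2 fold change 1.12). Mmp16 gave 1.41 (adjusted p = 0.0487), lost without replicate 3 of 4T1 lung or replicate 1 of 4T1 spleen or replicate 2 of control lung (adjusted p = 0.104 to 0.242, log2 fold change 0.98 to 1.32). Mmp3 gave -1.44 (adjusted p = 0.0948), lost without replicate 2 or 3 of 4T1 lung or replicate 1, 2 or 3 of 4T1 spleen or replicate 1 or 2 of control lung or replicate 2 or 3 of control spleen (adjusted p = 0.121 to 0.332, log2 fold change -1.48 to -0.93) and on library totals (adjusted p = 0.174, log2 fold change -1.19). Mmp15 gave -1.22 (adjusted p = 0.0975), lost without replicate 1 or 2 of 4T1 lung or replicate 1 or 2 of 4T1 spleen or replicate 1 or 2 of control lung or replicate 2 or 3 of control spleen (adjusted p = 0.104 to 0.299, log2 fold change -1.27 to -0.86), with DESeq2 size factors (adjusted p = 0.102, log2 fold change -1.19), with no count filter (adjusted p = 0.135, log2 fold change -1.22) and on library totals (adjusted p = 0.201, log2 fold change -0.97). Timp2 gave 0.68 (adjusted p = 0.0696), lost without replicate 1 or 2 of 4T1 lung or replicate 1 or 3 of 4T1 spleen or replicate 1 or 2 of control lung or replicate 3 of control spleen (adjusted p = 0.101 to 0.186, log2 fold change 0.57 to 0.69) and with no count filter (adjusted p = 0.113, log2 fold change 0.68). Timp3 gave -1.24 (adjusted p = 0.082), lost without replicate 1 of 4T1 lung or replicate 1 or 3 of 4T1 spleen or replicate 3 of control lung or replicate 3 of control spleen (adjusted p = 0.126 to 0.278, log2 fold change -1.28 to -0.81) and on library totals (adjusted p = 0.183, log2 fold change -0.99).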

How the results depend on the processing

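The 21 counts of called members stayed within 1.5 times the value given in 20 cases with DESeq2's Wald test, 20 with DESeq2 size factors, 20 with no count filter and 21 on library totals without TMM factors, the last chosen after seeing the data. The exception was 4T1 against control scaffolds, where these 3 settings called 1 member, Mmp13, in place of 0. Leaving out 1 library at a time gave 18 to 19 called members for 4T07 and 18 to 20 for 4T1 against 67NR tumors, and 6 to 9 for 4T1 against 4T07 tumors. In scaffolds it gave 0 to 0 for 67NR, 2 to 5 for 4T07 and 0 to 1 for 4T1 against control, and 0 to 1 for 4T1 against 4T07 (Mmp8 without replicate 2 of the controls, Mmp13 without replicate 3 of 4T1, Mmp11 without replicate 2 of 4T1). In lungs it gave 0 to 1 for 67NR (Adamts10 without replicate 3 of the controls), 15 to 17 for 4T07 and 3 to 3 for 4T1 against control, and 10 to 13 for 4T1 against 4T07. In spleens it gave 0 to 0, 8 to 10 and 6 to 9 against control, and 0 to 1 for 4T1 against 4T07 (Timp3 without replicate 1 of 4T07). In control mice it gave 28 to 30 for scaffold against lung, 28 to 30 for scaffold against spleen and 17 to 22 for lung against spleen. The tissue differences of the 4T1 response gave 3 to 3 for scaffold minus lung, 7 to 11 for scaffold minus spleen and 5 to 10 for lung minus spleen, the 5 without replicate 2 of the control lungs, replicate 3 of the control spleens, replicate 2 of the 4T1 lungs or replicate 1 of the 4T1 spleens. Where leaving out a library leaves 2 in a group, the spread is pooled over all groups of the fit. The 146 single values tried per setting were those of the members named by rule within a tissue, whether called or not. Of these, DESeq2 left 140 the same with 6 weaker. Calls of other members, such as Mmp27 and Mmp19 in tumors and Adamts3 in lungs and spleens, are outside this tally. Their losses are given with each gene. DESeq2 size factors and no count filter left 145 the same with 1 weaker each. Library totals left 136 the same, with 2 weaker, 2 now called and 6 moved. The same means still called in the same direction, or still uncalled with a change under 1 standard error. Moved means still uncalled with a larger change. No value called in either run reversed, and no called member changed sign under either scaling. On library totals, uncalled values did change sign, among them Mmp2, Timp2 and Timp3 in 4T07 spleens and Mmp9 between 4T1 and 4T07 spleens. Library totals moved the median of all genes by 0.25 and 0.20 in 4T07 and 4T1 against 67NR tumors, 0.14 and 0.11 in 4T07 and 4T1 scaffolds, 0.10 in 67NR lungs and -0.17 and -0.25 in 4T07 and 4T1 spleens. The higher and lower calls became 9 and 4 for scaffold minus spleen (5 and 4 above) and 7 and 1 for lung minus spleen (5 and 4 above) on library totals, and 6 and 3 for lung minus spleen with DESeq2 size factors. Depth limits members under about 1 CPM, whose levels rest on a few counts per library. No paired analysis was possible because the labels give the groups no shared replicate numbers and do not tie tissues to a mouse.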
